A study of Mus musculus with 4 samples.

Results

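The 37 genes described here encode transporters, channels and endocytic receptors that mature kidney tubules use to recover solutes and water, together with *Slc9a3r1*, a scaffold protein of the same membranes, *Umod*, a secreted protein of the thick ascending limb, and the enzymes *Ass1*, *Car2* and *Car4*. They were chosen by gene symbol, and all 37 were found among the 52636 Ensembl gene identifiers with counts. RNA-seq was performed on tdTomato+ cells sorted from mouse embryonic kidneys, with 2 control and 2 *Eya1*cKO libraries of 5000 cells each. Embryos of both genotypes carried the *Eya1*CreER allele, which puts a tamoxifen-inducible Cre under the *Eya1* locus, and a tdTomato reporter, and *Eya1*cKO embryos carried floxed *Eya1* in addition. Mice were on a mixed C57BL/6J and 129/Sv background. Kidneys were collected at E12.5 to E12.75, 48 h after tamoxifen was first given. A cell was therefore sorted because it, or a cell it descended from, had expressed CreER, and its identity at the time of sorting was not selected. Suspensions from several embryos had been combined before the sort. The study calls the libraries of a genotype biological replicates, made from different portions sorted at the same time. *P* values therefore measure the spread between sorted portions, which may be technical, and do not cover the spread between embryos.

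Nephrons form from mesenchymal progenitors that condense, become epithelial and then divide into segments. Proximal tubule cells recover glucose, phosphate, amino acids and filtered protein, the thick ascending limb and distal convoluted tubule recover sodium and chloride, and the collecting duct, which grows from the ureteric bud and not from the progenitors, adjusts water, sodium and acid. Most of these transport genes are switched on only as a segment matures, and several, such as *Slc12a2* and *Atp1b1*, are used by many cell types.

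Gene counts totalled 17457452 to 37999342 per library, and reads on no annotated gene made up 12.9% and 13.9% of all reads in the controls and 20.9% and 22.7% in *Eya1*cKO. *Eya1* was at 189 and 171 CPM (gene counts relative to the library total, scaled by TMM) in the controls versus 16.7 and 12.5 CPM in *Eya1*cKO. Among 10 nephron progenitor markers, 8 were lower in *Eya1*cKO, and their summed level went from 1034 CPM in both controls to 115 and 144 CPM. Markers of other cells differed as well. All 8 adrenal cortex markers and all 8 sympathoadrenal markers were higher in *Eya1*cKO, with summed levels of 12.6 to 19.3 CPM in the controls against 749 to 790 CPM for the former and 6.53 to 10.3 CPM against 546 to 582 CPM for the latter. The 8 podocyte and 8 endothelial markers were all higher, too. The renal stroma list was at 2535 to 2564 CPM in sum in the controls against 5235 to 5582 CPM, with 4 of its 8 genes higher and 1 lower, and the ureteric bud list at 440 to 460 CPM against 199 to 215 CPM, with 3 of its 12 genes lower. In bulk RNA, fewer cells of a type and less RNA per cell cannot be told apart, and the part of these cell types in the results below was not tested.

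**Figure D1:**
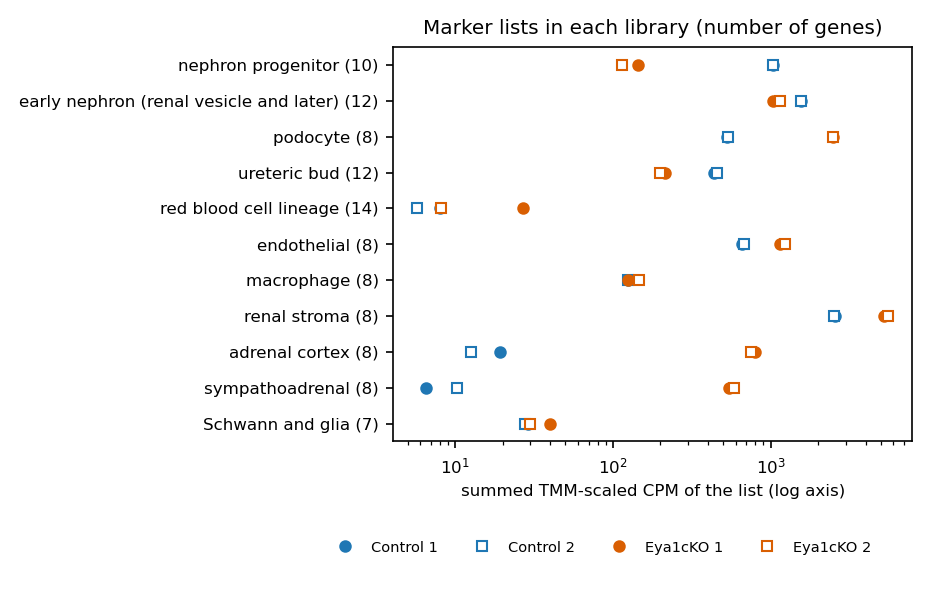
Summed TMM-scaled CPM of each marker list on a log axis, with 1 point per library and the number of genes of each list in parentheses. The *Eya1*cKO points lie far above the control points for the adrenal cortex and sympathoadrenal lists and far below them for nephron progenitor markers, whereas the macrophage lists of both genotypes lie close together, at 124 to 147 CPM.

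To ask whether tubule transport genes changed after loss of *Eya1*, the genotypes were compared with edgeR's quasi-likelihood test over all 19041 genes that passed its filter on low counts. Of the 37 genes, 7 rose in *Eya1*cKO (18.9%), namely *Ass1*, *Slc34a1*, *Cubn*, *Slc7a9*, *Lrp2*, *Atp1b1* and *Slc9a3r1*, and 1 fell, *Slc12a2* (2.7%), where 9.56% of all genes tested passed, 5.15% higher and 4.41% lower. The shares of the set are over all 37 genes, tested or not, and those of the background over tested genes only. Another 20 were tested without passing an adjusted *P* of 0.05, and 9 had too few reads to be tested. The median log2 fold change (*Eya1*cKO over control) was 1.18 over the 28 tested, against 0.02 over all genes tested. Both *Eya1*cKO libraries lay above both controls in 17 of the 28 and below them in 4, compared with 25.3% and 30% of all genes tested (55.3% for either). DESeq2's Wald test called 11 transport genes higher and 1 lower, against 9.18% and 6.57% of the genes it tested. A gene that is nearly silent in the controls can pass the filter through *Eya1*cKO alone, so these last figures describe the tested genes and not the whole set. All 8 calls were lost when either control library was left out, with adjusted *P* from 0.097 to 0.52 in edgeR, because the spread then came from the *Eya1*cKO libraries alone. Without either *Eya1*cKO library, by contrast, more genes were called both in this set and over all genes, since the lone library was then assumed to vary like the controls.

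**Figure D2:**
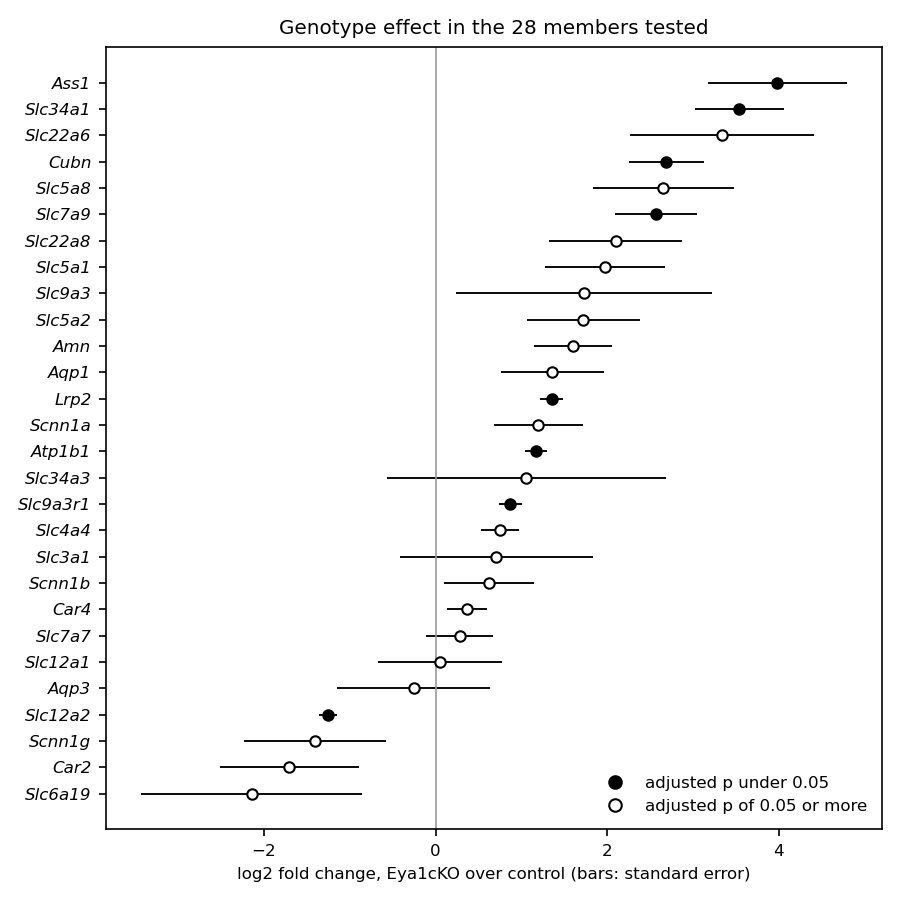
Log2 fold change of *Eya1*cKO over control for the 28 transport genes that could be tested, with standard errors from edgeR as bars and filled points where the adjusted *P* was under 0.05. The filled points run from -1.25 for *Slc12a2* to 3.99 for *Ass1*, and the widest bars belong to genes seen in only some libraries, such as *Slc34a3* and *Slc9a3*.

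Among the genes for phosphate, sulfate and carboxylates, *Slc34a1* rose and none of the other 5 passed the test, 3 of them having too few reads to be tested. *Slc34a1* encodes NaPi-IIa, the main sodium-phosphate cotransporter of the proximal tubule brush border, and lies on chromosome 13 from 55398187 to 55415592 of GRCm38. It was at 2.86 and 3.07 CPM in the controls versus 23.9 and 48.0 CPM in *Eya1*cKO, 11.7-fold higher (log2 fold change 3.54, standard error 0.52, edgeR adjusted *P* = 0.0095). Of its exonic length, 11.7% lies opposite *Pfn3*. The *Eya1*cKO libraries were far from each other but both far above the controls, and leaving out each library in turn kept the log2 fold change between 2.99 and 4.00. *Slc5a8*, a sodium-coupled carrier of lactate and other monocarboxylates, was at 0.372 and 0.401 CPM in the controls versus 3.14 and 1.60 CPM in *Eya1*cKO. These groups did not overlap, yet the difference did not pass (log2 fold change 2.66, edgeR adjusted *P* = 0.085), and it passed when only genes with at least 10 counts in every library were tested (adjusted *P* = 0.031).

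The remaining members of this group had 4 reads or fewer in at least 1 library of *Eya1*cKO. *Slc34a3*, the related cotransporter NaPi-IIc, had 1 and 30 reads in the controls and 0 and 36 reads in *Eya1*cKO, so that the libraries of a genotype differed more from each other than the genotypes did. *Slc13a1*, which carries sulfate, had 3 and 11 reads against 48 and 4. *Slc13a3*, a dicarboxylate carrier of the basolateral side, had 10 and 12 reads against 4 and 0, and *Slc13a2*, its apical relative, 2 and 19 against 0 and 0. No direction can be read from such numbers.

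The start regions of the set were searched for short letter patterns because several proximal genes moved together. RefSeq start windows (250 bases before and 50 after a start, GRCm38.p6) were found for 31 of the 37 genes, in 37 windows. Those without were *Car2*, *Scnn1a*, *Slc12a2*, *Slc13a1*, *Slc4a1* and *Slc5a2*. The core of the HNF4 motif, CAAAGTC on either strand, occurred in 3 of the 37 windows, those of *Slc34a1*, *Slc3a1* and *Slc7a7*, and in 4.44% of all 32851 windows. CAGCACC, the left part of the REST motif, occurred on either strand in windows of *Slc13a3* and *Slc9a3* and in 7.14% of all windows. The matches did not overlap each other, and a match is a description of the sequence only. The 120 bases that end with the start base are shown for *Slc34a1* (chr13:55399529-55399648, plus strand) and *Slc3a1* (chr17:85028228-85028347, plus strand), the genes with an HNF4 core in that stretch. *Slc34a1* was far higher in both *Eya1*cKO libraries, whereas *Slc3a1* was raised in only 1 of them. The levels of *Slc7a7*, whose core lies outside that stretch, overlapped between the genotypes. Whether the core bears on any of these levels was not tested. Neither stretch holds an annotated exon, and that of *Slc34a1* lies inside the annotated gene. They read 5′ to 3′, with the core in capitals, which in *Slc34a1* is on the reverse strand:
Slc34a1: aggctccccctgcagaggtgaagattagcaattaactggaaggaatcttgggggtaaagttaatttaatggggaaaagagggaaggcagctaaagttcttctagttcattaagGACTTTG
Slc3a1: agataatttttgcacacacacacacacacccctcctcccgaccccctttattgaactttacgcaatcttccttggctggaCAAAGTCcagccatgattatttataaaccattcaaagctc

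*Hnf4a*, a nuclear receptor that acts in proximal tubule maturation, was at 25.9 and 28.9 CPM in the controls versus 110 and 103 CPM in *Eya1*cKO (log2 fold change 1.96, edgeR adjusted *P* = 0.0011). It belongs to a list of 12 early nephron markers of which 2 were higher and 5 lower, with 9 of the log2 fold changes negative and a summed level of 1548 to 1550 CPM in the controls against 1029 to 1152 CPM. Binding of this factor was not analysed here.

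Neither glucose carrier passed the test, although each was higher in either *Eya1*cKO library than in the controls. *Slc5a2*, the high-capacity carrier SGLT2 of the early proximal tubule, was at 1.83 and 4.06 CPM in the controls versus 6.33 and 14.4 CPM in *Eya1*cKO (log2 fold change 1.72, edgeR adjusted *P* = 0.14), and 20.6% of its exonic length lies opposite another gene. *Slc5a1*, the SGLT1 carrier of the later proximal tubule, was at 1.12 and 1.15 CPM against 3.81 and 5.36 CPM (log2 fold change 1.98, edgeR adjusted *P* = 0.12).

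Of the organic anion carriers, *Slc22a6* had the highest reading in a single *Eya1*cKO library. *Slc22a6* encodes OAT1, which takes up organic anions from the blood side, and was at 2.03 and 1.63 CPM in the controls versus 4.74 and 35.7 CPM in *Eya1*cKO (log2 fold change 3.34, standard error 1.07, edgeR adjusted *P* = 0.10). The difference was 1.36 on the log2 scale without *Eya1*cKO 2 and 4.28 without *Eya1*cKO 1. *Slc22a8*, or OAT3, was at 1.35 and 2.06 CPM against 3.94 and 11.7 CPM (log2 fold change 2.10, edgeR adjusted *P* = 0.13, and 1.18 to 2.76 on the log2 scale with 1 library left out). DESeq2's Wald test called both higher, with adjusted *P* of 0.00059 and 0.046. *Slc22a12*, the urate carrier URAT1, had no read in any library, and 30.1% of its exonic length lies opposite *Nrxn2*.

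Amino acid transport gave calls for *Slc7a9* and *Ass1*. *Slc7a9*, on chromosome 7 from 35448796 to 35466036, encodes the light chain of the cystine and dibasic amino acid exchanger of the brush border. Its level was 2.46 and 2.30 CPM in the controls versus 14.8 and 13.2 CPM in *Eya1*cKO, 5.92-fold higher (standard error of the log2 value 0.48, edgeR adjusted *P* = 0.021). The libraries of each genotype were close together. *Slc3a1*, the heavy chain that forms this exchanger with it, was at 0.745 and 1.07 CPM against 2.66 and 0 CPM, so that its only raised library was *Eya1*cKO 1, and 26.5% of its exonic length lies opposite *Prepl*. *Ass1*, argininosuccinate synthase, which proximal tubules use to make arginine, was at 1.06 and 0.721 CPM in the controls versus 8.32 and 21.4 CPM in *Eya1*cKO. It had the largest log2 fold change of the tested set, 3.99 (standard error 0.81, edgeR adjusted *P* = 0.027), and lost its call without the low-count filter (adjusted *P* = 0.052) and with thinned control counts (adjusted *P* = 0.066). Without *Eya1*cKO 2 it was 3.21 and without *Eya1*cKO 1 it was 4.58. *Slc7a7*, part of the basolateral exporter of dibasic amino acids, was at 11.1 and 9.80 CPM and at 10.1 and 16.0 CPM. *Slc6a19*, the neutral amino acid carrier B0AT1, had 17 and 16 reads in the controls versus 0 and 4 in *Eya1*cKO, the only negative log2 fold change among the 15 tested of the 19 proximal and endocytic genes of the set (-2.15, edgeR adjusted *P* = 0.31).

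All 3 genes of the receptor complex for filtered proteins were higher in every *Eya1*cKO library than in either control, and *Lrp2* and *Cubn* passed the test. *Lrp2* encodes megalin, a very large endocytic receptor that many embryonic epithelia express, and lies on chromosome 2 from 69424340 to 69586065. It was at 68.9 and 63.6 CPM in the controls versus 185 and 152 CPM in *Eya1*cKO, 2.56-fold higher (log2 fold change 1.36, standard error 0.14, edgeR adjusted *P* = 0.0027). *Cubn*, or cubilin, on the same chromosome from 13276338 to 13491813, was at 6.79 and 3.07 CPM against 37.3 and 24.2 CPM, 6.45-fold higher (log2 fold change 2.69, standard error 0.43, edgeR adjusted *P* = 0.014). The *Cubn* difference was 2.19 on the log2 scale without control 2 and 3.33 without control 1. *Amn*, or amnionless, brings cubilin to the cell surface and was at 3.72 and 3.66 CPM against 10.9 and 11.6 CPM. Its libraries hardly differed within a genotype, but the difference did not pass (log2 fold change 1.60, edgeR adjusted *P* = 0.077), while DESeq2's Wald test called it (adjusted *P* = 0.015). From the wider list of tubule genes, 2 partners of these receptors were picked out after their values were seen, and both were higher. Of the 28 other proximal genes tested, 11 had a negative log2 fold change. Among them was *Clcn5*, at 97.8 and 97.3 CPM in the controls against 73.1 and 74.2 CPM in *Eya1*cKO (-0.41, edgeR adjusted *P* = 0.088). *Dab2*, an endocytic adaptor that binds megalin, had a log2 fold change of 0.98 (edgeR adjusted *P* = 0.007), and *Lrpap1*, the receptors' chaperone, of 0.53 (edgeR adjusted *P* = 0.04), a call lost without the low-count filter (adjusted *P* = 0.088), with the legacy method (0.066) and with thinned control counts (0.06).

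Of the 8 acid-base and water genes, *Slc9a3r1* rose. This gene, on chromosome 11 from 115163341 to 115181181, encodes NHERF1, a PDZ scaffold that anchors NaPi-IIa and the sodium-proton exchanger NHE3 at the brush border and that other polarised cells also make. It was at 75.3 and 78.1 CPM in the controls versus 127 and 155 CPM in *Eya1*cKO, 1.83-fold higher (log2 fold change 0.87, standard error 0.13, edgeR adjusted *P* = 0.011). *Slc9a3*, which encodes NHE3, had 4 and 18 reads in the controls versus 0 and 41 in *Eya1*cKO, and its groups overlapped. *Slc4a4*, the bicarbonate exporter NBCe1, was at 20.8 and 22.2 CPM against 38.1 and 34.0 CPM (log2 fold change 0.75, edgeR adjusted *P* = 0.08), without overlap between the groups, and DESeq2's test called it higher (adjusted *P* = 0.037).

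*Aqp1*, a water channel of the proximal tubule and thin limb that endothelial and red cells also make, was at 2.72 and 4.19 CPM in the controls versus 11.9 and 5.19 CPM in *Eya1*cKO (edgeR adjusted *P* = 0.19). The endothelial list was at 657 to 673 CPM in the controls versus 1151 to 1232 CPM in *Eya1*cKO, all 8 of its genes being higher. The carbonic anhydrases did not pass, with *Car4* at 24.8 and 29.3 CPM against 38.4 and 30.6 CPM and *Car2* at 9.05 and 4.65 CPM against 0.797 and 3.71 CPM. *Car2* acts in intercalated cells and *Car4* on the proximal cell surface, and *Car2* was below both controls in each *Eya1*cKO library (log2 fold change -1.71, edgeR adjusted *P* = 0.21). With 1 library left out, the log2 fold change of *Car2* ran from -3.10 to -0.88. *Slc4a1*, the chloride-bicarbonate exchanger AE1 of intercalated and red cells, had 11 and 16 reads in the controls and none in *Eya1*cKO. It was not tested, and of all genes with a mean of 5 to 20 control reads 53.2% were at or below 3 counts in both *Eya1*cKO libraries. Of a list of 14 red cell markers, 4 could be tested and none passed, its summed level was 5.72 to 7.99 CPM in the controls and 8.15 to 26.9 CPM in *Eya1*cKO, and the globin genes *Hba-a1*, *Hba-a2* and *Hbb-bs* had no read in any library. *Hbb-y*, an embryonic globin, had 1 and 7 reads in the controls and 0 and 19 in *Eya1*cKO. *Slc26a4*, or pendrin, of the base-secreting intercalated cell, had 12 reads in control 1 and none elsewhere.

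Of the 8 loop, distal tubule and collecting duct genes, 5 could be tested and none passed, which at 9.56% of all genes called is near the background. *Slc12a1*, the furosemide-sensitive cotransporter NKCC2 and an early marker of the thick ascending limb, was at 4.35 and 4.97 CPM in the controls versus 1.77 and 8.78 CPM in *Eya1*cKO, which lay on either side of the controls. *Slc12a3*, the thiazide-sensitive cotransporter, had 10 and 4 reads in the controls and none in *Eya1*cKO, and *Umod* 5 reads in control 1 and none elsewhere. *Aqp2*, the vasopressin-regulated water channel, had 9 and 0 reads against 3 and 0, and *Aqp3*, its basolateral counterpart, 18 and 38 against 20 and 6.

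The subunits of the epithelial sodium channel were present at a few CPM and did not move together. *Scnn1a* was at 5.10 and 4.46 CPM in the controls versus 7.57 and 15.2 CPM in *Eya1*cKO, *Scnn1b* at 5.13 and 5.58 CPM against 10.8 and 5.07 CPM, and *Scnn1g* at 4.67 and 3.55 CPM against 2.52 and 0.285 CPM. The first was above both controls in each *Eya1*cKO library, the second overlapped, and the third was below both controls, with log2 fold changes of 1.20, 0.62 and -1.40. None of them passed, and *Scnn1g* rested on 57 and 5 reads in *Eya1*cKO, its log2 fold change running from -3.83 to -0.71 with 1 library left out.

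*Slc12a2* fell and *Atp1b1* rose, both at high level. *Slc12a2* encodes NKCC1, a basolateral cotransporter that brings chloride into many secretory and proliferating cells and is not typical of reabsorbing tubules. It was at 318 and 290 CPM in the controls versus 134 and 120 CPM in *Eya1*cKO, 2.38-fold lower (log2 fold change -1.25, standard error 0.10, edgeR adjusted *P* = 0.0014), the smallest *P* of the set. *Atp1b1*, the beta subunit of the sodium pump that drives all sodium-coupled uptake in the tubule, lies on chromosome 1 from 164437109 to 164458355. It was at 52.7 and 52.3 CPM against 123 and 112 CPM, 2.25-fold higher (log2 fold change 1.17, standard error 0.13, edgeR adjusted *P* = 0.0034), and 18.7% of its exonic length lies opposite *Nme7*. Other pump genes, taken from the wider list and named after the values were seen, were read beside it. *Fxyd2*, the regulatory subunit of tubule cells, was at 6.50 and 6.44 CPM against 27.0 and 34.4 CPM (log2 fold change 2.23, edgeR adjusted *P* = 0.0088). On the log2 scale the difference amounted to 1.76 for *Atp1b2* (edgeR adjusted *P* = 0.0095) and 0.29 for *Atp1b3* (edgeR adjusted *P* = 0.16). *Atp1b2* is best known from neurons and glia.

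**Figure D3:**
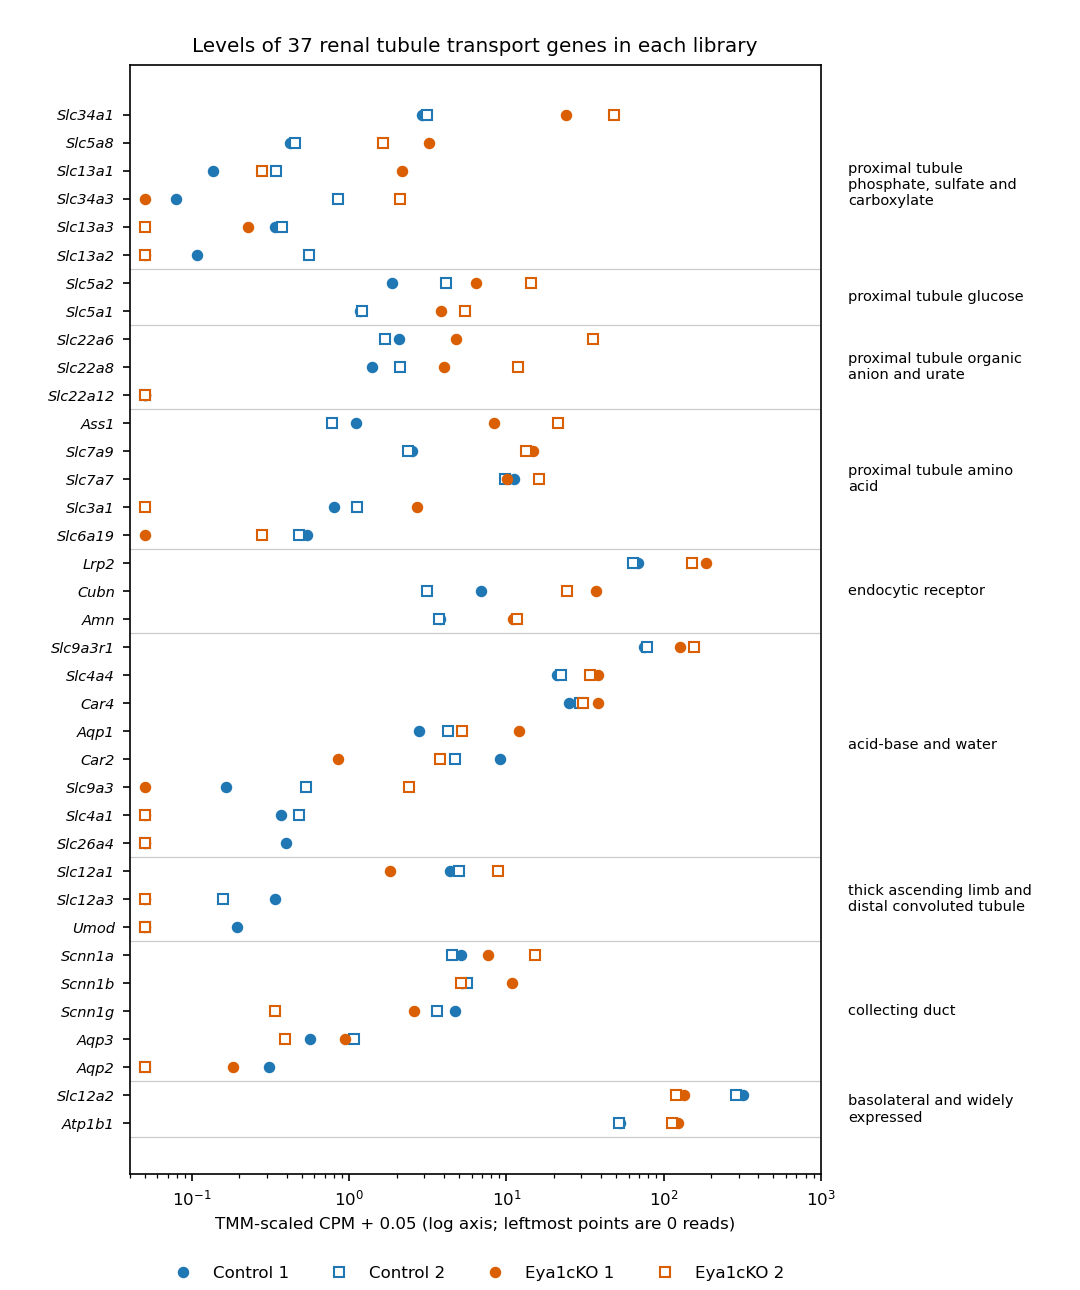
TMM-scaled CPM plus 0.05 of the 37 genes in each library on a log axis, by transport group, with circles for library 1 and squares for library 2 of a genotype. Points at the left edge are libraries without a read. The orange *Eya1*cKO points lie to the right of the blue control points for *Slc34a1*, *Slc7a9*, *Ass1* and the 3 endocytic receptor genes, and to the left for *Slc12a2*.

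Levels of different genes were compared per kilobase of exon. In the controls the highest were *Slc9a3r1* with 39.8, *Slc12a2* with 27.8, *Atp1b1* with 17.0 and *Car4* with 13.8 CPM per kb, none of which is particular to a mature segment. *Lrp2* followed with 3.97 CPM per kb, and *Slc34a1*, *Ass1*, *Slc22a6* and *Cubn* were all below 1, at 0.635, 0.369, 0.460 and 0.330. In *Eya1*cKO *Slc34a1* was at 7.68, *Ass1* at 6.15, *Slc22a6* at 5.07 and *Cubn* at 2.06 CPM per kb. *Slc34a1* thereby went from place 17 to place 6 of the 37 and *Ass1* from 22 to 7, still below *Slc9a3r1*, *Atp1b1*, *Car4*, *Slc12a2* and *Lrp2*.

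At 3 counts or fewer in both *Eya1*cKO libraries were 7 genes, *Slc13a2*, *Slc22a12*, *Slc4a1*, *Slc26a4*, *Slc12a3*, *Umod* and *Aqp2*. In both controls this held for *Slc22a12* alone, and in 1 control for 6 genes, *Slc34a3*, *Slc13a1*, *Slc13a2*, *Slc26a4*, *Umod* and *Aqp2*. A further 5 genes, *Slc34a3*, *Slc13a3*, *Slc3a1*, *Slc6a19* and *Slc9a3*, were at or below 3 counts in 1 *Eya1*cKO library, and 24 of the 37 were above 3 counts in every library. The *Eya1*cKO libraries were less deep, with limits of 0.133 and 0.171 CPM for 3 counts against 0.0859 and 0.0801 CPM, limits that cover counting error only. Thinned counts show how many such losses the difference in depth gives if reads are drawn independently, in genes picked by their control reads. Libraries of a genotype differed by more than such counting noise, so the thinned share may understate the losses from depth. Of the 10 transport genes with a mean of 5 to 20 control reads, 4 were at or below 3 counts in both *Eya1*cKO libraries. Of all 5342 genes in that range, 53.2% were, whereas control counts thinned to the *Eya1*cKO depth gave 5.45%. In the opposite selection, of 3210 genes with a mean of 5 to 20 *Eya1*cKO reads, 19.9% were at or below 3 counts in both controls. The 9 transport genes with too few reads for the test have no *P* value in either direction.

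**Figure D4:**
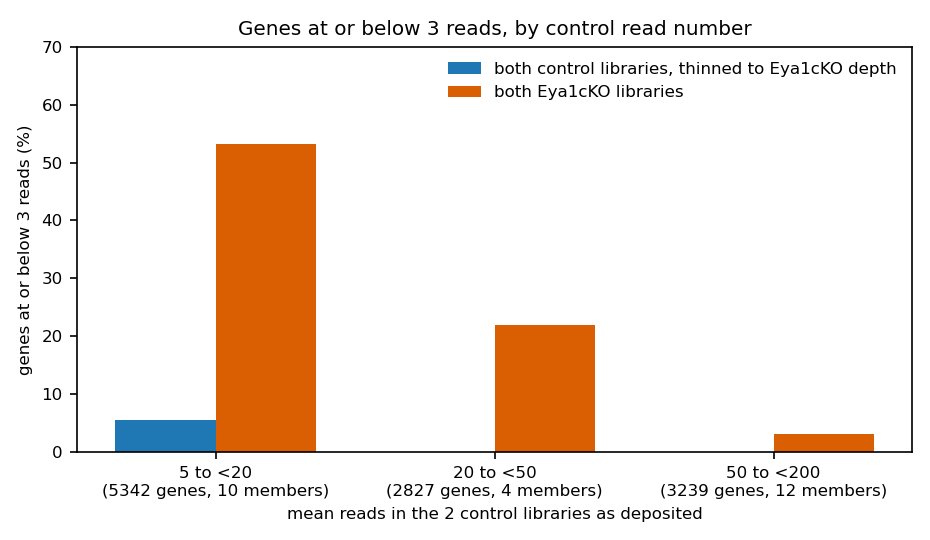
Share of all genes at or below 3 reads in both libraries of a genotype, by mean control reads as deposited, for control counts thinned to the *Eya1*cKO depth (blue) and for *Eya1*cKO (orange). At 5 to 20 control reads the shares are 5.45% and 53.2%, and at 50 to 200 reads 0% and 3.12%.

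The libraries of *Eya1*cKO differed more from each other than the controls did. For 27 of the 28 tested transport genes the difference between libraries was wider in *Eya1*cKO, with a median of 1.04 on the scale of log2(CPM + 0.1) against 0.19 in the controls, and over all genes tested it was wider for 78.6%, with medians of 0.54 and 0.18. Below 10 CPM on average, where 18 of the 28 lay, the median difference in *Eya1*cKO was 1.27 for the transport genes and 1.44 for all genes. From 10 to 50 CPM it was 0.64 for 6 transport genes and 0.45 for all genes. With at least 50 CPM on average, as for *Lrp2*, *Slc9a3r1*, *Slc12a2* and *Atp1b1*, the median for the transport genes was 0.22 in *Eya1*cKO and 0.08 in the controls, and for all genes of that level 0.21 and 0.07. No library was raised throughout, since *Slc22a6*, *Slc34a1*, *Ass1* and *Scnn1a* were higher in *Eya1*cKO 2, and *Cubn*, *Aqp1*, *Slc5a8* and *Slc13a1* in *Eya1*cKO 1.

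A wider list of 80 other tubule genes was read in the same fit. Of these, 12 were higher and 4 lower in *Eya1*cKO, 43 were tested without passing and 21 were not tested, where 5.15% of all genes tested were higher and 4.41% lower, with a median log2 fold change of 0.34 over the 59 tested. Among the 40 other proximal genes 28 were tested, and 7 were higher and 3 lower. Of the 20 loop and distal genes 15 were tested and none passed, and of the 16 collecting duct genes 12 were tested, with 2 higher and 1 lower. With 9.56% of all genes called, no call among 15 genes is near the background. Those with the largest rise were *Slc6a18*, *Slc2a2*, *Pdzk1* and *Fxyd2*. *Slc2a2* encodes GLUT2, which lets glucose out of proximal cells, and had 70 and 82 reads in the controls and 514 and 277 in *Eya1*cKO (log2 fold change 3.22, edgeR adjusted *P* = 0.01). *Slc6a18*, a brush border neutral amino acid carrier related to *Slc6a19*, was at 0.544 and 0.694 CPM against 6.90 and 5.64 CPM (3.34, edgeR adjusted *P* = 0.031), a call lost with the legacy method and without the low-count filter. *Pdzk1*, another brush border scaffold, was at 6.73 and 5.13 CPM against 47.5 and 36.3 CPM (2.85, edgeR adjusted *P* = 0.0034), and 41.7% of its exonic length overlaps other genes. The 4 that fell were *Car14*, *Hsd11b2*, *Slc16a1* and *Slc20a1*, with log2 fold changes of -1.64, -0.96, -0.77 and -0.72. *Slc20a1*, a phosphate carrier of most cells, was at 98.2 and 93.1 CPM against 49.7 and 68.4 CPM, opposite in direction to *Slc34a1*. The calls of *Slc16a1*, *Slc20a1* and *Hsd11b2* were also lost without the low-count filter, with the legacy method and with thinned control counts, and no gene named from this list held its call when either control was left out. *Hsd11b2* protects the mineralocorticoid receptor from glucocorticoids in the collecting duct.

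**Figure D5:**
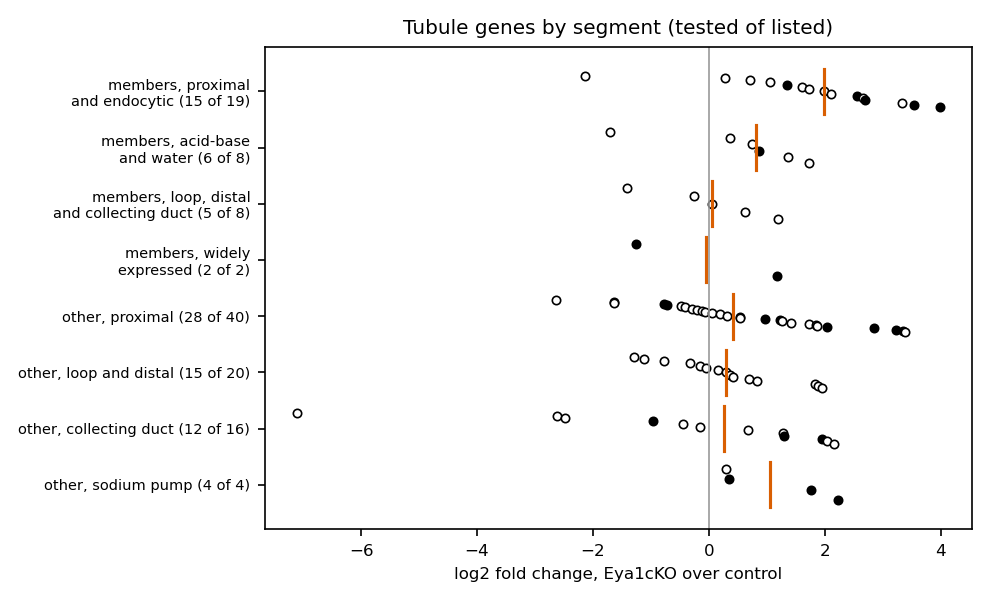
Log2 fold change of *Eya1*cKO over control for each tested tubule gene, by segment, for the 37 genes described here and for the 80 others, with medians as orange lines and filled points where the adjusted *P* was under 0.05 in edgeR. Filled points on the right are found in the proximal, acid-base, widely expressed and sodium pump rows and in the row of other collecting duct genes. The loop and distal rows hold none, also where they are joined with the collecting duct genes of the 37.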

How the data were processed

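The authors mapped reads of strand-specific SMARTer libraries to mm10 with HISAT2 and counted them on Ensembl release 90 genes with HTSeq. The strand setting is not given in the sources used here, so reads of overlapping opposite genes cannot be told apart. The deposited values are raw read counts per gene, and summary lines that name no gene, 31.8% to 46.1% of all reads recorded, were left out. The labels give 6 kidneys per genotype from 4 females, and the study's methods give other numbers of kidneys and females. Symbols, coordinates and exon lengths came from GENCODE M21 (GRCm38, the build of mm10), and start windows from RefSeq.

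The genotypes were compared by edgeR 4.0.16 (R 4.3.3), using filterByExpr with a minimum count of 10, TMM factors, glmQLFit (legacy = FALSE) and glmQLFTest on genotype alone, with Benjamini-Hochberg adjustment at 0.05 over all genes tested. A standard error was taken as the size of the log2 fold change divided by the root of its F value. DESeq2, which the authors used in a version they do not state, was run in version 1.42.0 as an alternative. Other alternatives were other scalings, filters, a replicate block, thinned control counts and each library left out. Libraries of a genotype differed by more than counting noise. All 37 genes were to be described, with the 4 largest calls in each direction from the wider tubule list and at most 4 genes of each marker list. Genes and lists were chosen with earlier results of these data known. Samples of 2 per group allow no outlier test, and the paper's other assays were not analysed here. Some genes of the lists are not reported here.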

Additional observations from a re-analysis of the deposited data

Results flagged for a closer look

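Reads that fell on no annotated gene took a larger share in the *Eya1*cKO libraries, at 22.7% and 20.9% of all reads recorded, than in the controls, at 13.9% and 12.9%. They lie outside the gene counts compared above.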

How the results depend on the processing

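The count of all genes called, 1820, was 1055 without the low-count filter, 1096 with the legacy method, 1172 with thinned control counts and 3102 with DESeq2's Wald test, which called 11 transport genes higher instead of 7. With the replicate number as a block 621 genes were called, among them 6 of the 7 higher transport genes (*Slc7a9* was lost, adjusted *P* = 0.082 in edgeR) and *Slc12a2*. Same-numbered libraries shared no deviation (correlation 0.009 over 19041 genes), so the number was not treated as a pairing. *Slc12a2* was the only lower call in each alternative with 4 libraries. With 1 library left out, the calls ran from 23 to 7925 over all genes, from 0 to 15 among the transport genes for higher and from 0 to 2 for lower, a lone library being assumed to vary like the other genotype. The sign changed for *Slc34a3* (-6.78 to 4.73), *Slc3a1* (-7.78 to 1.52), *Slc7a7* (-0.064 to 0.60), *Slc9a3* (-6.29 to 3.09), *Slc12a1* (-1.41 to 0.90), *Aqp3* (-1.18 to 0.31) and *Scnn1b* (-0.091 to 0.99), none of them called. The cause was not tested. Transport genes at the limit in both controls numbered 1 at 3 counts, 2 with thinned counts and 4 at 10 counts. Scaling by library totals alone gave 59.3% of calls as higher, against 53.9%.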
